A study of Mus musculus with 4 samples.

Results

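The cells described here are the alveolar type 1-like (AT1-like) cells of the lungs of MMTV-HER2/Neu mice, a breast cancer model whose Neu (HER2) transgene is expressed in mammary epithelium from the promoter of the mouse mammary tumor virus (MMTV). A member was a called cell with at least 5 UMIs, summed, of Ager, Cldn18, Akap5, Rtkn2 and Hopx, and with more UMIs of these 5 alveolar type 1 genes than of 6 endothelial genes (Cldn5, Ramp2, Egfl7, Cdh5, Tmem100 and Calcrl). UMIs count captured RNA molecules. A droplet barcode was called a cell at 500 UMIs or more and 250 genes or more, with a mitochondrial share of no more than 20%. By this rule 63 of 185 called cells of the early lung and 97 of 210 of the late lung were members, 160 of the 395 lung cells and of the 2147 called cells of the series. The members were chosen by the measured UMIs of the 11 genes in the rule, so these genes, and every comparison of members with non-members, are given as a description and not as a test.

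The series holds 4 droplet single-cell libraries, 1 for each combination of stage and site, all from mice on the FvB background. Early mice were 14 to 18 weeks old with no palpable tumor, and late mice were over 20 weeks old and carried a primary tumor. Lungs were digested, and the submitters sorted CD45- HER2+ cells for 10x Chromium droplets (3' v2 chemistry). The labels call the sorted cells breast cancer cells, and the other libraries came from the early mammary gland and the primary tumor. All groups carry the same transgene, so none is a transgene-free control. The number of mice behind each library is not given in the sources used here. With 1 library per group there is no test, and the intervals below are exact 95% intervals of counting error, which leave out the variation among mice and among cells.

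Alveolar type 1 cells are thin, widely spread epithelial cells that line most of the alveolar surface and exchange gas with the capillaries beneath them. They share a basement membrane with the endothelium, carry water and ion channels, and are held together by tight junctions. They can arise from alveolar type 2 cells, the surfactant makers, through an intermediate state rich in keratins. The lineage factor NKX2-1 and the TEAD partners YAP and TAZ are known to maintain alveolar type 1 cells.

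The lung libraries held 743765 UMIs in the early and 1070236 in the late lung, of which 27.4% and 38.5% lay in called cells. No called barcode was shared between libraries. Members had a median of 802 UMIs and 435 genes in the early lung and 767 UMIs and 451 genes in the late lung. Mitochondrial RNA made up a median of 1.70% and 1.86% of their UMIs, against 4.34% and 3.48% in the other called lung cells. A few deep cells held much of the sums of the other cells: in the late lung 24 cells over 2000 UMIs held 75.1% of their UMIs, and in the early lung 11 such cells held 35.0%. Free RNA, measured in barcodes with 1 to 50 UMIs, contained the 5 marker genes at 8006 CPM (counts scaled to 1e6 in all) in the early and 6977 CPM in the late lung. No doublet caller was run.

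Members made up 34.1% of the called cells in the early lung (95% interval 27.3% to 41.4%) and 46.2% in the late lung (39.3% to 53.2%). The intervals overlap, and no test between the stages was possible. In the early mammary gland and the primary tumor 0 of 1318 and 0 of 434 called cells met the rule, where 3 cells would make 0.228% and 0.691%. Cells that met the mirrored endothelial rule were 48 and 39 in the early and late lung, and 74 in each lung met neither rule. The sort and the minimums on UMIs and genes set the denominator of each share, so they are not shares of the lung.

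The members carried the 5 genes together. The median sum was 31 UMIs per cell in the early and 27 in the late lung, against a median of 1 in the other cells of each lung. A droplet holding free RNA only would have 6.42 and 5.35 UMIs at the median depth of the members. The share of free RNA in the called cells was not measured. At least 3 of the 5 genes were detected in 62 of 63 early and 93 of 97 late members, and all 5 in 15 and 30. Endothelial UMIs were absent in 53 early and 81 late members and reached at most 3 in the early and 2 in the late lung. Just inside the threshold, 1 early and 3 late members had 5 to 7 marker UMIs. Just outside it, 7 early and 10 late cells had 3 or 4. A further 5 early and 9 late cells had 5 or more marker UMIs, up to 16 and 34, but at least as many endothelial ones, and these cells had 997 to 11411 UMIs in the early and 3373 to 30252 in the late lung.

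**Figure D1:**
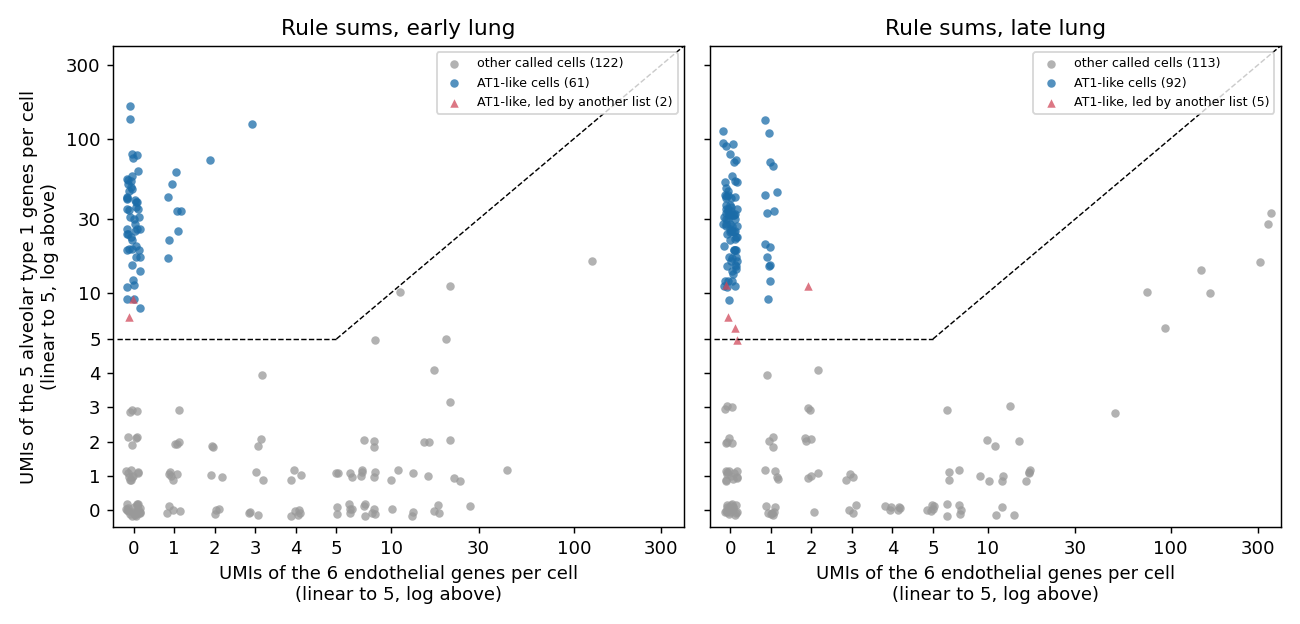
Each point is 1 called lung cell, placed by its UMIs of the 6 endothelial genes (x axis) and of the 5 alveolar type 1 genes (y axis), both linear to 5 and logarithmic above, for the early lung (left) and the late lung (right). The 63 early and 97 late members lie high on the y axis with at most 3 endothelial UMIs, and the cells above 5 on both axes were left out by the rule.

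Of the members, 7 held more UMIs of another cell type's marker list than of the 5 alveolar type 1 genes. The early lung held 1 such cell led by alveolar type 2 genes, with 71 Sftpc UMIs of 705 in all, and 1 led by airway genes, with 2987 Scgb1a1 UMIs of 4255. In the late lung 3 cells were led by airway genes, with 1635, 3144 and 9661 Scgb1a1 UMIs, 1 by alveolar type 2 genes with 110 Sftpc UMIs, and 1 by haemoglobin genes, which made up 92.9% of its 6873 UMIs. These 7 cells had 5 to 11 marker UMIs. At their depths a droplet holding free RNA only would have 5.64 to 103, an upper figure for the part of free RNA in them. They held 7.50% of all member UMIs in the early and 27.1% in the late lung. Without them the members were 61 early cells (33.0%) and 92 late cells (43.8%), whose lowest marker sums were 8 and 9. This alternative was chosen after seeing the data, and the main counts below are also given without these cells, list counts where they change.

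Markers of other cell types were summed in the remaining 61 early and 92 late members. The 15 alveolar type 2 genes summed to 0 to 4 UMIs per cell in the early and 0 to 18 in the late lung, with 7 of the 15 at 0 in each. Of 14 fibroblast genes 10 were at 0 in each lung, among them Dcn, Lum, Col1a1 and Col1a2, and of 15 pericyte and smooth muscle genes 9 were at 0 in the early and 5 in the late lung. Of 15 immune genes 10 and 9 were at 0, including Ptprc, which encodes the CD45 excluded by the sort. Airway genes reached a median of 6 UMIs per cell and a maximum of 47 and 21, with a summed level of 7634 and 7784 CPM where free RNA held 48504 and 78771 CPM. Of 18 mammary and milk genes 9 and 11 were at 0, among them Wap, Lalba, Elf5, Esr1 and Krt14. That list summed to 1373 CPM in early members against 429 CPM in the other early cells, and to 1146 against 2596 CPM in the late lung, with free RNA at 3036 and 2168 CPM. Krt8 and Krt18, keratins of simple epithelia in general, made up 41 and 28 of its 84 UMIs in early members and 47 and 33 of 91 in late members. The part of these residual UMIs in the results below was not tested.

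Erbb2, the mouse gene that matches the transgene, had 1 UMI in the 63 early members, a level of 15.1 CPM (0.383 to 84.2), and 0 in the 97 late members, with an upper bound of 33.9 CPM. The called cells of the early mammary gland held Erbb2 at 7.64 CPM and those of the primary tumor at 47.6 CPM. The depth of the early members could not separate their level from either. The matrices list the mouse gene and no feature named for the transgene.

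The 5 genes of the rule are given first, by their summed UMIs. Ager, on chromosome 17 from 34597862 to 34600936 (mm10), encodes the receptor for advanced glycation end products, a membrane protein of the basal side of alveolar type 1 cells. It had 1105 UMIs in early members and 29 in the other early cells, and 1463 and 55 in the late lung. The log2 ratio of CPM was 6.28 (5.78 to 6.89) in the early and 6.20 (5.82 to 6.63) in the late lung. Ager was detected in 63 of 63 early and 93 of 97 late members. In the other cells it stood at 211 and 181 CPM, below the 3383 and 3115 CPM of free RNA. Hopx, a homeodomain-only cofactor on chromosome 5 (77086988 to 77115121, mm10), was detected in all 160 members, with 819 UMIs against 93 in the early and 1084 against 191 in the late lung. Its log2 ratios were 4.19 (3.88 to 4.52) and 3.98 (3.76 to 4.21).

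Cldn18, a claudin of alveolar tight junctions on chromosome 9 (99689461 to 99717267, mm10), had 286 UMIs in early members against 10 and 408 in late members against 15. Its log2 ratios were 5.83 and 6.20. Akap5, an anchoring protein for protein kinase A on chromosome 12 (76324891 to 76334153, mm10), had 127 UMIs against 7 and 146 against 6, ratios of 5.14 and 5.97. Rtkn2, on chromosome 10 (67979570 to 68059740, mm10), had 80 against 3 and 120 against 6, ratios of 5.58 and 5.69. Akap5 and Rtkn2 were seen in fewer members than the others, 40 and 31 of 63 in the early and 59 and 52 of 97 in the late lung. Since these genes chose the cells, their separation is a product of the rule.

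The promoter windows of Ager and Hopx, the rule genes with the most member UMIs, are shown because these genes were high in the same cells. Of Igfbp2, which the rule did not use, 1 of 2 windows is shown, the 1 that held a motif match. Each window runs from 250 bases before to 50 after a transcript start and comes from RefSeq (GRCm38.p6), written on the strand of the gene. Capitals mark matches to CTCAAG or its reverse complement CTTGAG, the core letters bound by NKX2-1.
Ager, chr17:34597600-34597899, plus strand: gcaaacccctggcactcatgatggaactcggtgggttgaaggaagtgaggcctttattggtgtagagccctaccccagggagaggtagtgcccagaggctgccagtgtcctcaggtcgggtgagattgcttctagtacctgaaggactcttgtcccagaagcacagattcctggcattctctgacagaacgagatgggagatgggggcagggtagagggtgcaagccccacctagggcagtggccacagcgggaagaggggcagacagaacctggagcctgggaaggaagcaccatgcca
Hopx, chr5:77115074-77115373, minus strand: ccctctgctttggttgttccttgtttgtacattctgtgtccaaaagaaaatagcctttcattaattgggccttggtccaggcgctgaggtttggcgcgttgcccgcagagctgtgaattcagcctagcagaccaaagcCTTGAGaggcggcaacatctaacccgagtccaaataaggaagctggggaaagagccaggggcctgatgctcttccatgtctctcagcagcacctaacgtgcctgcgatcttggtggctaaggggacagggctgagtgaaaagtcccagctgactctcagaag
Hopx, second start, chr5:77095218-77095517, minus strand: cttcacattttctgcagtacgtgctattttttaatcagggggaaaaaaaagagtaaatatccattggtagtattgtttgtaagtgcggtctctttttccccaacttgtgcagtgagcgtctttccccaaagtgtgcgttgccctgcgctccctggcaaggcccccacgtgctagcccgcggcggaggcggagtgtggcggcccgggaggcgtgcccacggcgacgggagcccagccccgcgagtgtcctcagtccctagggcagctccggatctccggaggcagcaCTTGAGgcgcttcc
Igfbp2, second start, chr1:72825137-72825436, plus strand: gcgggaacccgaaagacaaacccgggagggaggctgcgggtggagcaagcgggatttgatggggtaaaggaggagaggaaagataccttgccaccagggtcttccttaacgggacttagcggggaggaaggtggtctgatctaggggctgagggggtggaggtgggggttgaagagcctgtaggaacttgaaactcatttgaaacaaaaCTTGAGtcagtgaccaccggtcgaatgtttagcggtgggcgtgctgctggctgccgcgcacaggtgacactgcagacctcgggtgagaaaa

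The motif was found in both Hopx windows and in the Igfbp2 window shown. The Ager window and the first Igfbp2 window (chr1:72824230-72824529, not printed) held no match. Emp2, outside the rule and with more member UMIs than Igfbp2, had 1 window (chr16:10313919-10314218, not printed). It held no match either. Of the 5 rule genes 4 had windows in the table, and Rtkn2 had none. Of their 6 windows 2 held the motif (33.3%), against 15.9% of all 32851 windows of the same length outside chromosome 18, which was left out. Of 29 windows of other alveolar type 1 genes 4 held it (13.8%), in Fam189a2, Igfbp2, Lamp2 and Spock2. The TEAD core GGAATG (reverse complement CATTCC) was in 0 of the 6 and 1 of the 29 windows, against 14.7% of all windows. A match of 6 letters is a description of the sequence and not a binding site.

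Across all genes, 1659 could be compared between members and other cells in the early lung and 3376 in the late lung. A gene was compared when it had at least 20 counts over both sums, and is called higher or lower when the fold was at least 2 and the counting interval of the ratio excluded 1. In the early lung 297 genes were higher (17.9%) and 314 lower (18.9%), and in the late lung 337 were higher (9.98%) and 926 lower (27.4%). Without the 7 members led by another list the counts were 318 (19.4%) and 307 (18.7%) in the early, and 455 (13.6%) and 725 (21.7%) in the late lung. Without cells over 2000 UMIs in either class, an alternative chosen after seeing the data, they were 217 (16.8%) and 266 (20.6%) in the early, and 249 (18.7%) and 207 (15.5%) in the late lung. Of 1632 genes compared in both lungs, 163 were higher in both, which is 56.0% of the early and 74.1% of the late higher genes. Another 248 were lower in both, 80.5% and 68.3% of the lower genes. Of 1612 genes compared without the 7 cells, 201 were higher and 237 lower in both. The lungs were separate libraries, but the same rule chose the members of each.

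Alveolar type 1 genes that the rule did not use were high in the same cells. Of a list of 28 such genes 20 could be compared in the early lung, where 18 were higher and 0 lower with a median log2 ratio of 3.93. In the late lung 23 were compared, of which 20 were higher and 0 lower, with a median of 3.74. The median over all genes compared was 0.02 in the early and -0.40 in the late lung. Genes of the same cells vary together, so this is a description of the cells chosen and no separate test of their name.

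Igfbp2, a secreted binder of insulin-like growth factors that marks mature alveolar type 1 cells, had one of the larger separations outside the rule. Its UMIs were 187 in early members against 3 in other cells, and 244 against 5 in the late lung. The log2 ratios were 6.80 (5.45 to 9.31) and 6.95 (5.84 to 8.72). It was detected in 36 of 63 early and 58 of 97 late members, against 3 and 5 of the other cells. Pdpn, the surface glycoprotein podoplanin, had 64 UMIs against 1 and 80 against 5, ratios of 6.48 and 5.35. Aqp5, a water channel, had 83 against 2 (6.12) and 86 against 25 (3.24), and 1 of the other late cells held 20 of those 25 UMIs. In cells of up to 2000 UMIs the late Aqp5 counts were 79 against 2, a ratio of 4.97.

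Spock2, a matrix proteoglycan, had 29 UMIs in early and 42 in late members and 0 in the other cells of each lung. Set against 3 counts in the other cells, it was at least 20.1-fold and at least 39.0-fold higher. Krt7, a simple epithelial keratin, had 172 UMIs against 6 and 218 against 16, with ratios of 5.79 and 5.20. Prdx6, an antioxidant enzyme that also acts on surfactant phospholipid, had 529 against 77 and 753 against 156, ratios of 3.83 and 3.74. The separation was smaller for Emp2, a tetraspan membrane protein, at 203 against 126 (1.74) and 283 against 253 (1.64). Vegfa, the endothelial growth factor, had 69 against 18 (2.97) in the early and 85 against 82 (1.53) in the late lung.

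**Figure D2:**
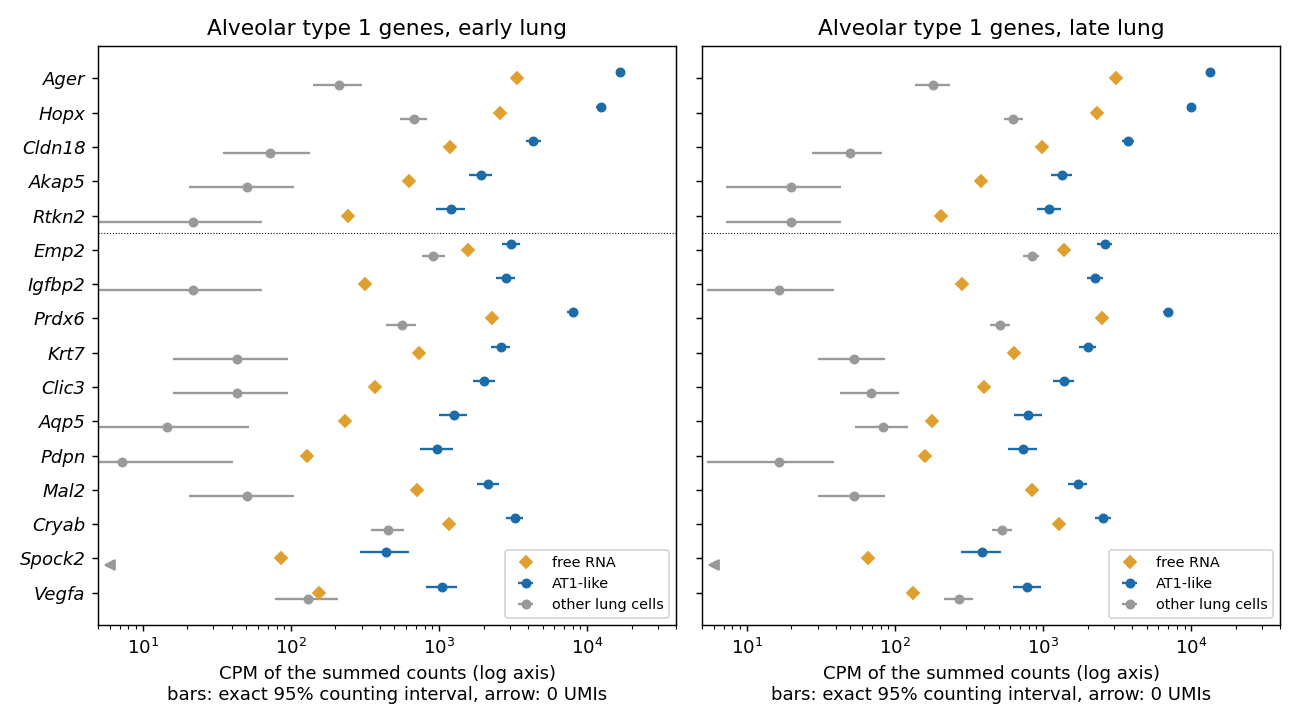
Levels of alveolar type 1 genes, in CPM of the summed counts on a log axis with exact 95% counting intervals, in members, in the other called lung cells and in free RNA, for the early lung (left) and the late lung (right). The dotted line separates the 5 genes of the rule from genes it did not use, and for genes such as Ager (1105 member UMIs against 29) and Igfbp2 (187 against 3) the other cells lie below free RNA.

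The list of the transitional, keratin-rich alveolar state gave 6 of 8 genes higher and 1 lower in the early lung, and 6 of 10 higher and 3 lower in the late lung, with medians of 3.63 and 2.15. The 6 were the same in each lung: Krt8, Krt18, Krt19, Lgals3, Anxa1 and S100a6. Lgals3, the lectin galectin-3, had 79 UMIs against 1 and 147 against 14, and S100a6, a calcium-binding protein, had 599 against 72 and 1017 against 137. Their log2 ratios were 6.78 and 4.82 for Lgals3 and 4.10 and 4.36 for S100a6. Krt8 had 41 against 9 and 54 against 22, ratios of 3.18 and 2.75. Cdkn1a, the p21 cell cycle inhibitor of that list, was lower, with 1 UMI in early members against 46 and 14 in late members against 282. Krt18 was no longer past the fold in the late lung without cells over 2000 UMIs, at 29 against 20 UMIs and a ratio of 0.51. Mature alveolar type 1 cells are also known to carry several of these genes.

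Genes of cell shape were higher as well. Of 20 and 21 actin and cytoskeleton genes 12 and 11 were higher and 1 was lower in each lung, with medians of 1.24 and 1.03. Tmsb4x, which binds monomeric actin, had 2203 UMIs in early members against 1119 in other cells and 2946 against 1994 in the late lung, ratios of 2.03 and 2.04. Actb, cytoplasmic actin, had ratios of 1.27 and 1.03. In each lung the lower gene was Rdx, which encodes radixin, a linker of actin to the membrane. Caveolar genes gave 3 of 7 and 2 of 7 higher, 0 lower, and 5 of 7 higher in the late lung without the 7 cells, with Ptrf, a caveolar coat protein, at 74 against 76 UMIs (1.02) and 87 against 115 (1.08). Cav1, the caveolin shared by alveolar type 1 and endothelial cells, did not pass the fold, at 0.65 and 0.03.

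Channel genes differed in direction from gene to gene, and junction genes did so in the late lung only. Water and ion transport genes gave 5 higher and 4 lower of 10 in the early lung, and 4 and 5 of 12 in the late lung, or 4 and 4 without the 7 cells. Aqp5 and the chloride channel proteins Clic3 and Clic5 were higher in each lung, with Clic3 at 133 UMIs against 6 and 150 against 21. Aqp1, the water channel of endothelium, was lower, with 4 UMIs in early members against 74 and 4 in late members against 301, ratios of -2.99 and -4.59. Clic1 and Clic4 were lower in each lung too. Junction genes gave 3 higher and 0 lower of 5 in the early and 3 and 3 of 10 in the late lung. Without the 7 members led by another list the late junction count was 6 higher and 1 lower.

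The epithelial adhesion genes were sparse but followed the class. Epcam, an epithelial adhesion molecule, had 15 UMIs in early members against 0, and 12 in late members against 13. Without cells over 2000 UMIs the late counts were 12 against 1. Cdh1, E-cadherin, had 12 against 0 and 20 against 2 UMIs. Vim, the mesenchymal filament gene, was compared after thinning each cell to 500 UMIs, without the 7 cells. It had a UMI in 1.64% of 61 early members against 41.7% of 48 cells of the endothelial rule, and in 2.17% of 92 late members against 38.5% of 39. Of the 74 cells of neither rule in each lung, 18.9% in the early and 28.4% in the late lung had a Vim UMI. Thinned Epcam was seen in 8.20% of early members (2.72% to 18.1%) and 8.70% of late members (3.83% to 16.4%). It was seen in 0 of 48 and 0 of 39 endothelial-rule cells, where 3 cells would make 6.25% and 7.69%, and in 0 of 74 cells of neither rule in each lung, where 3 would make 4.05%. Median depths before thinning were 802 and 722 UMIs in members and 831 and 936 in the endothelial-rule cells. Unthinned, Epcam was seen in 16.4% and 11.96% of these members and in 8.11% of the late cells of neither rule. Unthinned Vim was seen in 4.92% and 3.26% of members, 52.1% and 69.2% of endothelial-rule cells and 29.7% and 43.2% of cells of neither rule.

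**Figure D3:**
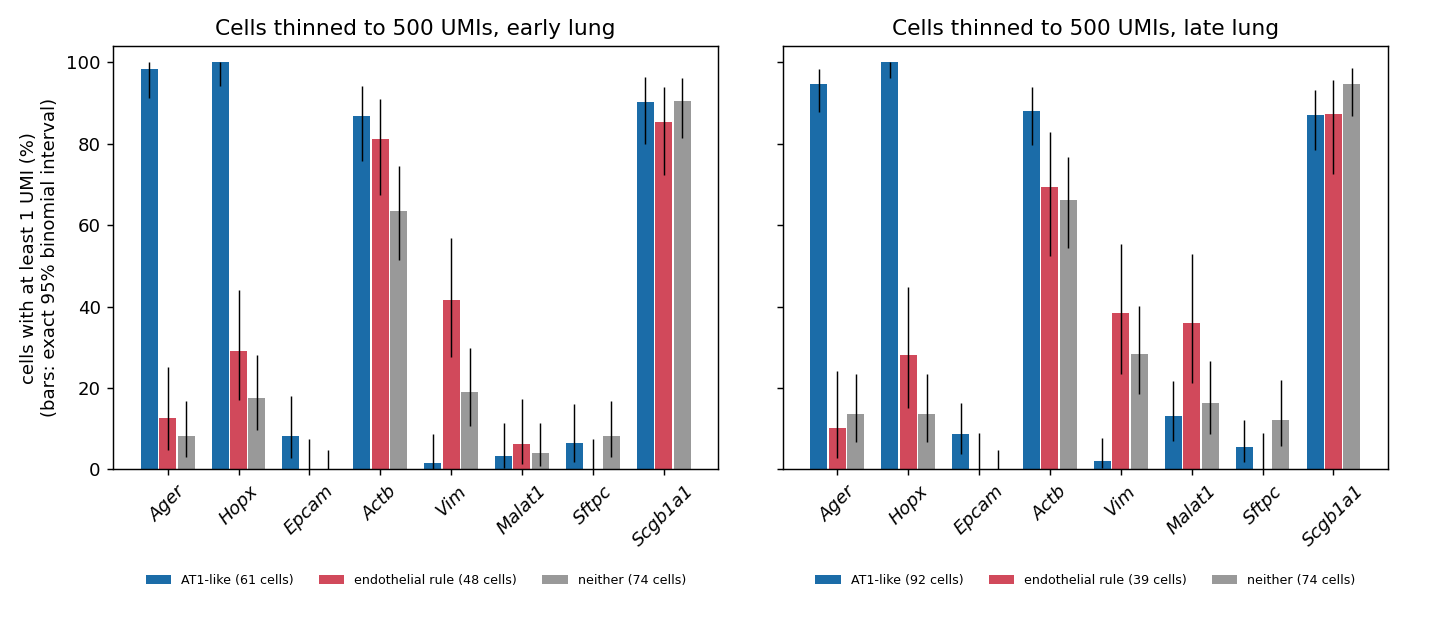
Share of cells with at least 1 UMI of each gene after thinning every cell to 500 UMIs, with exact 95% binomial intervals, in members without those led by another list, in cells of the endothelial rule and in cells of neither, for the early lung (left) and the late lung (right). Ager and Hopx mark members by construction. Vim is seen in 1.64% and 2.17% of members, 41.7% and 38.5% of endothelial-rule cells and 18.9% and 28.4% of cells of neither rule. Scgb1a1, an abundant free RNA, is seen in 85.4% to 94.6% of every class.

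Among regulators, Nkx2-1, the lung lineage factor, had 22 UMIs in early members against 1 and 26 in late members against 6, ratios of 4.96 and 3.50. The list of alveolar transcription factors otherwise went the other way, with 2 higher (Nkx2-1 and Hopx) and 5 lower in each lung (Klf2, Klf4, Klf6, Tbx2 and Tbx3), of 7 and 8 compared. Hopx is itself in the rule. The medians of -2.85 and -2.06 were 0.53 and 1.78 with cells thinned, over 2 genes in each lung. The early median was 0.80 at 1000 UMIs per cell, over 2 genes. The late median was 3.33 without cells over 2000 UMIs, over 3 genes. Most of the list was no longer compared at these settings, so the medians do not show that the lower genes changed side. Klf2, a flow-responsive factor of endothelium, had 10 UMIs against 157 and 15 against 217. Its ratios were -2.85 and -2.33. Of the targets of YAP and TEAD, Ankrd1 had 36 against 2 and 43 against 3 UMIs, ratios of 4.92 and 5.11, and Cyr61 had 2.01 and 1.33. That list gave 2 higher and 1 lower of 4 in the early and 4 and 4 of 10 in the late lung. Without the 7 cells the late split was 4 higher and 1 lower.

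Ligands for neighbouring cells differed in direction. Of the angiogenic ligands 2 of 3 were higher in the early and 5 of 9 in the late lung, and 1 and 4 were lower. Without the 7 cells the late count was 5 higher and 3 lower. The late median of 1.53 was -1.89 at a minimum of 100 counts, over 2 genes, and -0.57 at 1000 UMIs per cell, over 6. Pdgfa, a growth factor for alveolar fibroblasts, had 37 UMIs against 20 and 50 against 21, ratios of 1.93 and 2.71. Ndnf, a secreted neurotrophic factor, had 14 against 1 in the early and 28 against 0 in the late lung, where it was at least 26.0-fold higher. Genes of BMP and TGF-beta signalling and their Id targets were lower, 6 of 6 in the early and 9 of 11 in the late lung, with medians of -2.33 and -3.34, and 8 of 11 in the late lung without the 7 cells. Id1 had 3 against 29 and 4 against 134 UMIs. Acvrl1, a BMP receptor of endothelium, had 2 against 43 and 2 against 159. Of the other cells 48 of 122 in the early and 39 of 113 in the late lung met the mirrored endothelial rule, and the part of that makeup in these ratios was not tested.

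Immune recognition genes were lower in members. Of the class I antigen presentation genes 7 of 9 were lower in the early and 11 of 11 in the late lung, with medians of -2.37 and -1.95, and 0 were higher. Without the 7 cells the late count was 7 of 11. Endothelial-rule cells held 1147 of the 1692 class I UMIs of the other early cells. Their level was 20883 CPM, against 12302 CPM in all other early cells and 4945 CPM in early members. The part of that makeup in these ratios was not tested. H2-D1, a classical class I heavy chain, had 122 UMIs in early members against 693 and 139 in late members against 2046, ratios of -1.44 and -2.40. H2-K1, the other classical heavy chain, had 11 against 176 and 38 against 566, ratios of -2.88 and -2.40. In cells of up to 2000 UMIs H2-K1 stood at -3.13 and -1.59 and H2-D1 at -1.66 and -1.71. Ifitm3, an interferon-inducible membrane protein, had 7 against 316 and 17 against 755. The class II invariant chain Cd74 had 8 against 73 and 13 against 422. Ifi27, of the same interferon list, was higher in each lung. Icam1, an adhesion molecule known on the alveolar type 1 surface, had 36 against 15 (2.29) and 63 against 28 (2.63).

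Of the immediate early and dissociation stress genes 2 were higher and 2 lower of 10 in the early lung, and 0 and 12 of 17 in the late lung, or 2 and 11 without the 7 cells. The late list median went from -2.48 to 0.84, over 7 genes, without cells over 2000 UMIs. Jun had 6 UMIs in early members against 71 and 6 in late members against 278. Among oxidative stress genes Prdx6, Gpx1 and Gpx4 were higher in each lung, with Gpx1 at 1.58 and 1.65, and the metallothioneins Mt1 and Mt2, with Gpx3 and Gstm1, were lower in each. Respiratory chain genes gave 3 and 1 of 21 higher and 0 lower, with medians of 0.46 and 0.34, and 4 and 3 higher without the 7 cells.

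Of the 10 lowest genes named by rank, 4 were endothelial genes of the rule, and the others were Plvap, Ly6a, Ly6c1, Mgp, Ifitm3 and Malat1. Tmem100 and Calcrl, used by the rule, had 4 and 0 UMIs in early members against 175 and 100, and 1 and 3 in late members against 549 and 300. Plvap, a protein of endothelial diaphragms that the rule did not use, had 0 UMIs against 80 in the early lung, at least 12.8-fold lower in members, and 3 against 214 in the late lung, a ratio of -4.46. Ly6c1, a surface antigen of endothelium, had 1 against 105 and 3 against 342 UMIs, ratios of -5.08 and -5.14. Mgp, a matrix protein, had 3 against 223 and 3 against 245, ratios of -4.94 and -4.65. Of the endothelial genes outside the rule 10 of 12 and 16 of 16 were lower, and of the fibroblast genes 8 of 9 and 9 of 10, with 0 higher in either list, the same counts as without the 7 cells.

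Other epithelial lists depended on the members led by another list. Alveolar type 2 genes gave 1 higher and 0 lower of 5 in the early and 0 and 1 of 5 in the late lung, and without the 7 cells 0 higher and 1 of 1 and 5 of 5 lower. Airway genes gave 1 higher and 4 lower of 9 in the early and 4 and 1 of 8 in the late lung. Without the 7 cells they gave 1 higher and 6 lower of 9, and 1 and 4 of 7, with medians of -3.40 and -3.66. Sftpc, the surfactant protein of alveolar type 2 cells, was seen after thinning in 6.56% and 5.43% of members not led by another list, and in 8.11% and 12.2% of the cells of neither rule.

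Malat1, a nuclear RNA, depended on the deep cells. It had 28 UMIs in early members against 784 in the other cells and 52 in late members against 6297, log2 ratios of -3.73 and -5.43. Without cells over 2000 UMIs the counts were 10 against 6 in the early lung, too few to compare, and 49 against 24 in the late lung, a ratio of 0.998 (0.28 to 1.78) on the other side of 0. In sums of cells thinned to 500 UMIs, deep cells kept, the ratios were -2.78 and -2.91. After thinning it was seen in 3.28% of early and 13.0% of late members, against 6.25% and 35.9% of endothelial-rule cells and 4.05% and 16.2% of cells of neither rule.

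**Figure D4:**
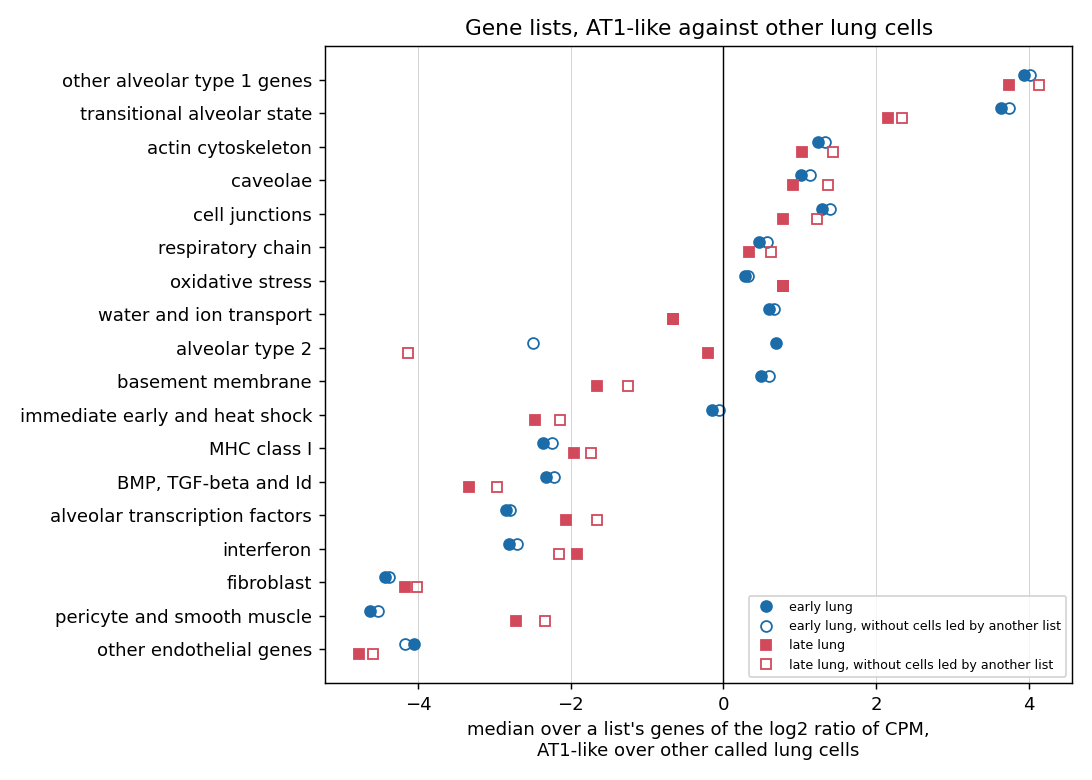
Median log2 ratio of CPM over the compared genes of each list, members over other called lung cells, for the early and the late lung, with all members and without those led by another list. Lists of alveolar type 1 genes lie to the right (3.93 and 3.74 for the genes outside the rule), the endothelial, pericyte and fibroblast lists lie to the left, and the late alveolar type 2 list goes from -0.21 to -4.13 when the members led by another list are left out.

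Ager and cytoskeletal genes ranked highest among members by an index of spread that also rises with the level of a gene. As an index of spread, each cell's squared deviation from the count that its depth gives was divided by that count and averaged, in the 61 early and 92 late members not led by another list. Counting error alone gives an index of 1, and the median was 1.84 over 118 genes in the early and 1.59 over 180 genes in the late lung. Ranked by the lower of its indices in both lungs, Ager came first of 116 genes, at 13.0 and 17.5, with up to 113 and 101 UMIs in 1 cell. Actb followed with 11.3 and 16.8, Tmsb4x with 6.22 and 7.38, Igfbp2 with 5.18 and 6.92 and S100a6 with 4.89 and 5.27. Of the other rule genes Cldn18 had 3.18 and 3.12, Akap5 2.29 and 2.11 and Hopx 2.58 and 1.85. Krt7, at 1.90 and 1.06, and Rtkn2, at 1.38 and 1.47, stood near or below the median. At the same relative variation an abundant gene has a higher index, so the ranks do not compare relative variation. Tmsb4x had 2151 UMIs in these early members and Rtkn2 had 79. The rule sets a floor on the sum that includes Ager, and the spread contains any difference in free RNA between droplets.

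The late and early members were then compared with each other, the comparison that the stages of the design imply. Of 1356 genes compared, 35 were higher (2.58%) and 92 lower (6.78%) in late members. Without the 7 cells led by another list 1267 genes were compared, of which 50 were higher (3.95%) and 47 lower (3.71%), and 22 higher and 46 lower genes were shared by the main and the reduced comparison. Leaving out cells over 2000 UMIs, 41 were higher and 41 lower of 1140 (3.60% each). The median log2 ratio over all genes was -0.25 with all members and -0.00 without the 7. A 95% counting interval leaves out the true ratio of up to 5% of genes by counting alone, and the members also vary beyond counting, so a single gene below carries no test. In the other called lung cells 388 of 3629 genes were higher (10.7%) and 3.44% lower, and without cells over 2000 UMIs 3.71% were higher and 5.39% lower.

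The alveolar type 1 genes differed little between the stages. None of the 5 genes of the rule was past the fold, and their median ratio was -0.31 with all members and 0.03 without the 7. The same floor on the sum of these 5 genes chose the members of both lungs. Their likeness between the stages is thus in part a product of the rule. Of 25 other alveolar type 1 genes 0 were higher and 1 lower (Cyp2b10), with a median of -0.26, and without the 7 cells 0 were past the fold with a median of 0.07. Ager had 1463 late and 1105 early UMIs, a ratio of -0.31 (-0.43 to -0.20) with all members and 0.02 (-0.10 to 0.13) without the 7. Igfbp2 had 244 and 187 UMIs and a ratio of 0.00 (-0.28 to 0.28) without the 7. These counting intervals lay inside a 2-fold difference. They leave out the spread among mice and among cells, where the index above was 13.0 and 17.5 for Ager and 5.18 and 6.92 for Igfbp2. A 2-fold difference between the stages is therefore not excluded. Cyp2b10, a cytochrome P450, had 28 late and 35 early UMIs and a ratio of -1.04 (-1.81 to -0.28), and -0.65 (-1.43 to 0.11) without the 7. Aqp5 had a ratio of -0.67 (-1.12 to -0.22), and -0.34 (-0.80 to 0.12) without the 7.

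With all members, 3 airway secretory genes and 4 haemoglobin genes were higher in late members. Scgb1a1 had 14856 late and 3261 early UMIs, and Hbb-bs had 2511 and 9. Without the 7 cells 0 of the 3 airway genes compared were higher, and no haemoglobin gene had the counts to be compared. Rgcc, which encodes a regulator of the cell cycle, was the most abundant of the 10 higher genes named by rank. It had 194 UMIs in 65 of 97 late members and 53 UMIs in 23 of 63 early members. The log2 ratio was 1.14 (0.71 to 1.62), 1.46 without the 7 cells and 1.20 without cells over 2000 UMIs. After thinning to 500 UMIs it was 0.95, short of the 2-fold. In the other lung cells Rgcc had 54 late and 25 early UMIs, a ratio of -0.04 (-0.74 to 0.72). Free RNA held Rgcc at 728 CPM in the late and 257 CPM in the early lung. With free RNA at 20% of each sum subtracted, the ratio was 1.12.

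The other genes higher in late members rested on few counts. Nme1, a nucleoside diphosphate kinase, had 27 UMIs in 21 late members and 2 UMIs in 1 early member, a ratio of 2.74 (1.04 to 6.15). Manf, a protein secreted under endoplasmic reticulum stress, had 29 against 3 (2.36, 0.86 to 4.91), and with at least 1000 UMIs per cell its ratio of 1.49 had an interval that included 0. Hes1, a Notch target, had 25 against 3 (2.15, 0.63 to 4.71), or 12 against 2 after thinning, too few to compare, and it was also higher in the other late lung cells, at 77 against 10 UMIs and a ratio of 1.74. Mrps21, of the mitochondrial ribosome, had 40 against 9 (1.37), and the chromatin remodelling subunit Smarcb1 had 18 against 2 (2.17). Acat1, a mitochondrial thiolase, had 19 against 1 (2.98) and fell under 20 counts without the 7 cells.

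Part of the higher counts lay in the cells led by another list. Cbr2, a carbonyl reductase of airway cells, had 92 late UMIs against 16, of which 7 against 2 were left without the 7 cells. Mgst1, a microsomal glutathione transferase, had 42 against 5, and 14 against 2 without them. Gsto1, another glutathione transferase, had 29 against 4 and then 18 against 4, a ratio of 1.66. H2-K1 was higher in late members at 38 against 11 UMIs, a ratio of 1.02 (0.07 to 2.19), and 1.17 without the 7 cells. Malat1 was not past the fold with all members, at 52 against 28 UMIs and 0.16, and was higher at 50 against 11 and 1.76 without the 7, and 1 of the 7 held 17 of the 28 early UMIs.

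Among the genes lower in late members, Bend7, which encodes a BEN-domain protein, had 4 late against 22 early UMIs, a ratio of -3.04 (-5.18 to -1.62). Its early UMIs lay in 7 of 63 members, with 8 in 1 cell. Itgb6, the epithelial integrin subunit that activates TGF-beta, had 4 against 16 (-2.59, -4.76 to -1.09). Scnn1a, a subunit of the epithelial sodium channel, had 15 against 28 (-1.60, -2.63 to -0.67), and -1.20 without the 7 cells. The early response genes Ier3 and Dusp1 had 32 against 54 (-1.47) and 12 against 24 (-1.69). In the other lung cells Ier3 went the other way, with 61 late and 13 early UMIs and a ratio of 1.05 (0.21 to 2.08).

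The other named genes lower in late members were as follows. The proteasome subunit Psmb4 had 14 against 27 UMIs (-1.64), the RNA helicase Ddx5 22 against 40 (-1.57) and the splicing factor Srsf5 8 against 21 (-2.06). Polr2m, at 6 against 17 (-2.15), and Tmed9, a protein of the early secretory pathway, at 9 against 20 (-1.83), were lower with all members and without the 7 cells. Tmed9 was not past the fold without cells over 2000 UMIs, at -1.09 (-2.52 to 0.22). Dcun1d5, a cullin neddylation factor, had 4 against 17 and fell under 20 counts without the 7 cells.

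**Figure D5:**
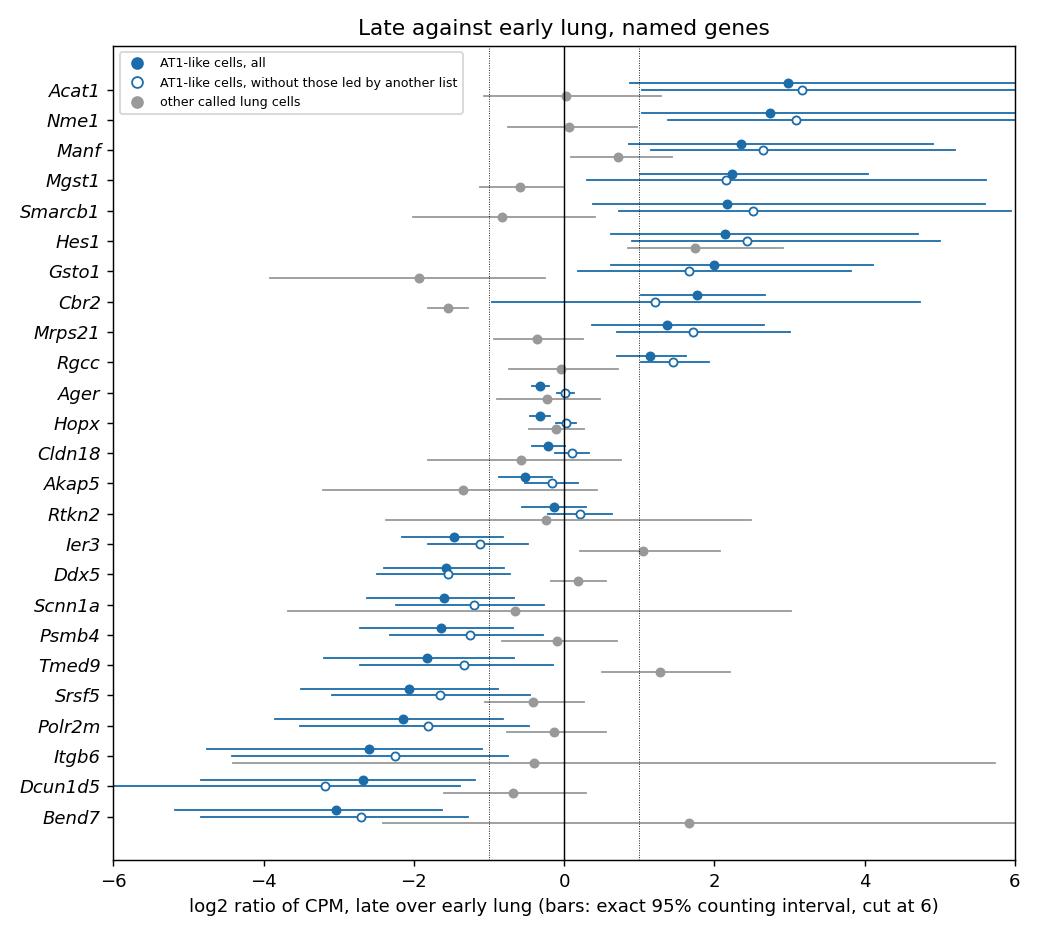
Log2 ratio of CPM, late over early lung, of the named genes, with exact 95% counting intervals drawn to 6, in all members (filled), in members without those led by another list (open) and in the other called lung cells (grey). The 5 genes of the rule lie near 0, while Rgcc (1.14) and Nme1 (2.74) are higher and Bend7 (-3.04) and Itgb6 (-2.59) lower in late members.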

How the data were processed

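The 4 libraries were deposited by the authors as raw UMI counts per gene and barcode, with 737280 barcodes and 27998 genes listed in each. Per the submitters' processing notes the genome build was mm10, and the aligner and counter are not given in the sources used here. Cells were called at 500 or more UMIs, 250 or more genes and at most 20% mitochondrial UMIs. No clustering, doublet caller or removal of free RNA was applied.

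Counts were summed over the cells of each class and library and scaled to 1e6 per sum (CPM). Log2 ratios were taken with 0.5 added to each count, and 95% intervals are exact conditional Poisson intervals for ratios and exact Clopper-Pearson intervals for shares. They cover counting error only. A gene is called higher or lower at 20 or more counts over both sums, a fold of at least 2 and an interval that excludes a ratio of 1. The floor for a count of 0 was 3 counts over the sum. The ratio and call functions were run on simulated sums with known folds and counting error only. The simulation left out the further variation among cells, so it does not show how the calls perform on these members. With 1 library per group no test across samples was made.

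For late against early members, genes at 50 CPM or more in either sum were ranked by the interval bound nearest to 1, and the 10 highest and 10 lowest were named. For members against other cells the 15 highest and 10 lowest over both lungs were named. Mitochondrial and ribosomal protein genes, predicted genes and pseudogenes were left out, as were, between stages, genes with over 50% of the higher sum in 1 cell. The 11 rule genes, Erbb2, Ptprc, Epcam, Sftpc, Scgb1a1 and up to 6 genes of each of 33 lists with the most member counts were added. Other genes named, such as Vim, Bmp receptor and class II genes, were chosen after their values were seen. The members and the lists were chosen with earlier results of these data known.

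Alternatives changed the marker minimum, UMI minimum, mitochondrial limit, scaling, added count and count minimum, left out deep cells, thinned cells to 500 UMIs or subtracted free RNA. Leaving out members led by another list, and cells over 2000 UMIs, was chosen after seeing the data. Gene positions are from GENCODE mouse M21 and promoter windows from RefSeq (GRCm38.p6). Python 3.11.15, numpy 2.4.6, pandas 2.3.3, scipy 1.17.1 and matplotlib 3.10.9 were used.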

Additional observations from a re-analysis of the deposited data

Results flagged for a closer look

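Of the named genes, 6 were called higher than the other cells in the members of 1 lung and lower in those of the other. Hba-a1 had a log2 ratio of -2.73 in the early and 6.15 in the late lung, and Hba-a2 had -4.50 and 6.29. Scgb3a1 had -4.71 and 6.41, Scgb3a2 had -2.41 and 1.96, and Scgb1a1 had -1.53 and 1.11. Without the 7 members led by another list the late ratios were -2.59 for Hba-a1, -4.09 for Hba-a2, -0.87 for Scgb3a1, -4.27 for Scgb3a2 and -3.66 for Scgb1a1. Tmed9 had 1.46 in the early and -1.64 in the late lung, and 1.42 and -1.19 without those cells. The difference between the lungs was not tested for any of them.

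Genes of the rule had a few UMIs in libraries outside the lung comparisons. Hopx had 21 UMIs in the called cells of the early mammary gland and 14 in those of the primary tumor, Rtkn2 had 4 in the mammary gland, and Akap5 had 4 in the tumor.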

How the results depend on the processing

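No paired analysis was possible because each group holds 1 library. Depth limits the comparison of late with early members, where many named genes have under 50 UMIs. Over the alternatives, 5585 of 6283 ratios of named genes stayed within their interval on the same side, 651 moved and 47 reversed, and of 1060 list medians 828 stayed, 217 moved and 15 reversed. Some settings could not change a ratio. A minimum of 5 or 100 counts leaves the ratio of a named gene as it is. Leaving out members with 5 endothelial UMIs took out no cell, for genes and lists alike. Those ratios stayed by construction, so the 5585 overstates how stable the ratios were. Unless a setting itself takes cells or genes out, the cause was not tested.

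The number of genes compared changed with the setting, and is given with each count. Genes higher in late members, 35 of 1356, became 14 of 717 with cells thinned and 18 of 1356 with 5 counts added. They were 57 of 1356 when scaled without mitochondrial, ribosomal, Scgb1a1 and haemoglobin counts. At a minimum of 5 and 100 counts they were 85 of 4276 and 9 of 255. Genes lower, 92 of 1356, became 57 of 1311 without cells over 10000 UMIs, 25 of 717 thinned and 47 of 1356 with that scaling. They were 257 of 4276 and 1 of 255 at 5 and 100 counts. Without members led by another list they were 47 of 1267, and without cells over 2000 UMIs 41 of 1140. Genes higher in early members than in other cells, 297 of 1659, became 130 of 827 thinned. At 5 and 100 counts they were 662 of 5452 and 52 of 305. Genes lower, 314 of 1659, became 155 of 901 at 1000 UMIs per cell and 154 of 827 thinned. At 5 and 100 counts these were 503 of 5452 and 46 of 305. In the late lung genes higher, 337 of 3376, became 190 of 2746 at 1000 UMIs and 168 of 937 thinned. At 5 and 100 counts they were 590 of 8128 and 87 of 674. Late genes lower, 926 of 3376, became 371 of 1909 without cells over 10000 UMIs and 159 of 937 thinned. They were 571 of 3376 with 5 counts added, 171 of 674 at 100 counts and 207 of 1333 without cells over 2000 UMIs.

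These log2 ratios changed side. Between stages, without members led by another list, Hbb-bs was -1.004, Scgb3a1 -0.38 and Scgb3a2 -1.45, and without cells over 2000 UMIs -0.59, -0.59 and -1.50. At 8 marker UMIs Hbb-bs was -1.05 and Hba-a1 -0.18, and at 3 marker UMIs Cbr2 was -0.81. In the early lung at 3 marker UMIs Hba-a1 was 1.19, Hba-a2 1.43, Scgb3a1 2.17, Cbr2 1.09, Scgb3a2 0.32, Scgb1a1 0.53 and the haemoglobin list 1.19. In the late lung at 8 marker UMIs Hbb-bt was -9.16, Hbb-bs -6.94, Lyz1 -3.45, Hba-a1 -7.57, Hba-a2 -9.20 and the haemoglobin list -8.37. Without members led by another list the late values were -1.77 for Hbb-bt, -1.27 for Hbb-bs, -2.32 for Lyz1, -2.59 for Hba-a1, -4.09 for Hba-a2, -0.87 for Scgb3a1, -4.27 for Scgb3a2, -3.66 for Scgb1a1 and -2.59 for the haemoglobin list. Without cells over 10000 UMIs late Scgb3a1 was -0.76, Scgb3a2 -1.09 and Scgb1a1 -1.22. Without cells over 2000 UMIs early Malat1 was 1.502, and the late values were -0.016 for Tpm2, Hbb-bs and Lyz1, -0.14 for Ctgf, -2.16 for Hba-a1, -4.54 for Hba-a2 and Scgb3a2, -0.75 for Scgb3a1, 0.998 for Malat1 and -3.81 for Scgb1a1. With cells thinned the late values were -0.055 for Tpm2, -0.52 for Lyz1, 0.51 for Srsf5, -0.98 for Scgb3a2 and -1.47 for Scgb1a1.

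The list medians below rest on the genes still compared at each setting, often few, so they do not show that a whole list changed side. The early alveolar transcription factor list was 0.67 at 100 counts, 0.80 at 1000 UMIs and 0.53 thinned, over 2 genes each. The late one was 1.78 thinned, over 2 genes, and 3.33 without cells over 2000 UMIs, over 3. The haemoglobin medians above rested on 3 genes, or 4 at 8 marker UMIs. The late angiogenic list was -1.89 at 100 counts, over 2 genes, and -0.57 at 1000 UMIs, over 6. The late mammary and milk list was 1.31 thinned and 0.51 without cells over 2000 UMIs, over 3 genes each. At the same settings the late immediate early list was 0.0040 over 6 genes and 0.84 over 7. The late nuclear RNA list was 0.998 without cells over 2000 UMIs, over 1 gene.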

Other observations

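Members also carried a few UMIs of some genes listed here with the mesothelium. Without the members led by another list, the 8 mesothelial genes summed to 294 CPM in early and 214 CPM in late members, above the 59.9 and 50.2 CPM of free RNA, with at most 3 UMIs in a cell and 6 and 5 of the 8 genes at 0. In the early lung the 18 UMIs were all of Rspo1 and Gpm6a, while Msln, Upk3b, Upk1b, Wt1, Lrrn4 and Muc16 were at 0. Gpm6a, a membrane glycoprotein of that list, was the 1 gene compared in the late lung, with a log2 ratio of 2.63 over the other cells.

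Sec14l3, a lipid-binding protein listed with airway genes, had 159 UMIs in early members against 10 in other cells and 201 against 23 in the late lung, log2 ratios of 4.98 and 4.58. It was the gene of the airway list that was higher in each lung without the members led by another list, where 6 and 4 of that list were lower.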
